A study of Caenorhabditis elegans with 6 samples.

Results

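The major sperm protein (msp) and sperm-specific family P (ssp) genes were followed in whole Caenorhabditis elegans at L4, which is the final larval stage, and at day 10. Members were the genes of the count table whose WormBase identifier carries a symbol made of msp or ssp and a number in the WBcel235 annotation, which gave 43 of 46940 features, 31 msp and 12 ssp. The animals were untreated wild-type N2 Bristol, grown in synchrony at 20 °C on agar plates, with 3 libraries of whole-worm RNA at each age. Column headings of the counts put the prefix Ev before the age, and the sample titles do not explain it. The labels do not say from which event day 10 is counted, whether progeny were kept away, or whether the samples of an age were separate cultures, so a p-value here sets a difference against a spread among libraries that may be only technical. Libraries held 19576201 to 25616846 counts, and those of day 10 lay farther from each other than those of L4. The series has no young adult sample, so the change from larva to adult and the change with adult age cannot be told apart.

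Nematode sperm crawl, and they do so on filaments of major sperm protein in place of actin. The protein is made in spermatocytes, packed into fibrous bodies and handed to the spermatids; it is also released from sperm as a signal that starts oocyte maturation and contraction of the gonadal sheath. In hermaphrodites spermatocytes are formed around the L4 stage, before the germ line turns to oocytes, and mature sperm do not transcribe. The ssp genes encode small proteins related to the MSP domain. Because msp genes are near-identical copies of each other, a read can match several of them, and the value of a single copy depends on how such reads were counted, and the sources used here do not give that.

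Transcripts of both families fell by more than an order of magnitude at day 10, with the exception of ssp-37, which rose. Together the 31 msp genes took 0.281% ± 0.00185 of all counts in L4 and 0.00754% ± 0.00171 at day 10 (mean ± SD, n = 3). In CPM, counts divided by the scaled library total and put on one common scale, the msp total was 2771, 2879 and 2829 in the 3 L4 libraries and 57.6, 80.9 and 85.7 at day 10. The day 10 total was 37.8-fold lower and every L4 library stood above every day 10 library. For the 12 ssp genes the total was 211, 222 and 214 CPM in L4 and 16.4, 20.0 and 18.4 at day 10, 11.8-fold lower; for the 11 genes other than ssp-37 it was 20.8-fold lower. In RNA of whole animals, fewer cells that express a gene and less RNA of it per cell cannot be told apart. All these levels are relative to the RNA of other genes, so a change in that RNA alters them too. RNA per animal was not measured.

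**Figure D1:**
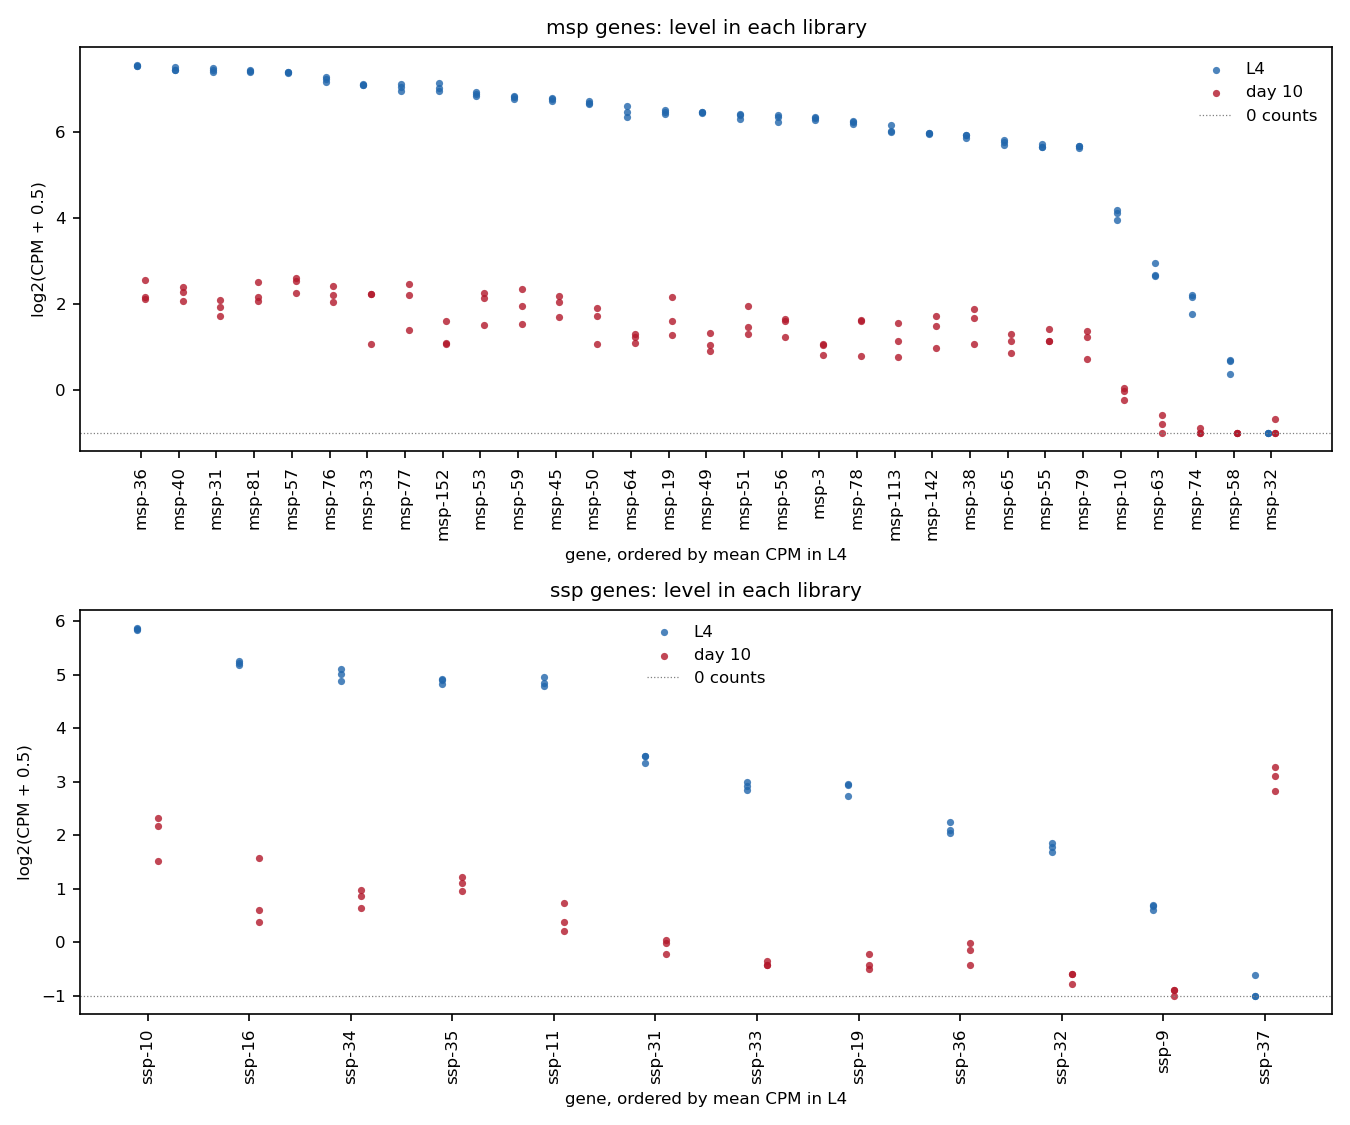
Level of each of the 31 msp genes (top) and 12 ssp genes (bottom) as log2(CPM + 0.5), with 1 point for each of the 3 L4 libraries and 3 day 10 libraries; the dotted line marks 0 counts. The L4 points lie above the day 10 points for every gene except msp-32, with 0 counts in L4, and ssp-37, which is reversed.

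Of the 31 msp genes, 30 could be tested, and 30 were lower at day 10 by edgeR's quasi-likelihood test at an adjusted p under 0.05, where 45.0% of all 15956 genes tested were lower. Of the 12 ssp genes, 11 were lower and 1, ssp-37, was higher, where 40.5% of all genes were higher. Each of the 41 genes that fell did so by at least 10-fold, a size reached by 16.0% of all genes; ssp-36 was only just past it, at 10.1-fold, with a log2 fold change of −3.18 in place of −3.34 under DESeq2's size factors, which is short of it, and −3.08 without day 10 replicate 2. Day 10 and L4 libraries stood apart without overlap in those 30 msp and 11 ssp genes and in ssp-37, against 46.2% of genes with all day 10 libraries lower and 41.3% with all higher. The median log2 fold change was −5.16 for msp and −4.55 for ssp, with −0.16 over all genes. By the authors' deposited table, an adjusted p under 0.05 with a lower mean at day 10 was given to 30 msp and 11 ssp genes, against 26.8% of its features, and one with a higher mean to ssp-37, against 27.7%. A gene with few counts at day 10 was kept by the filter because of its L4 counts alone. Of those tested, 26 of 30 msp genes and 6 of 12 ssp genes, ssp-37 among them, had at least 10 counts in every day 10 library. Another 3 msp genes and 4 ssp genes had fewer than 10 in each of these libraries. For genes kept through L4 alone, the call is no independent support. In the same way ssp-37, with 3 counts in L4, was kept because of its day 10 counts alone.

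**Figure D2:**
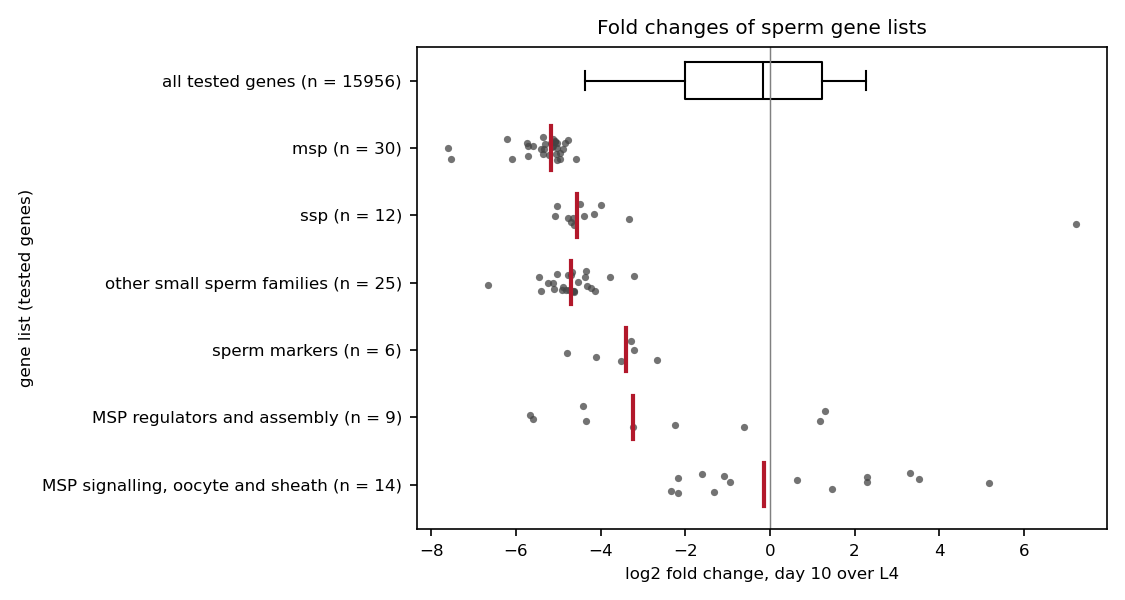
Log2 fold change (day 10 over L4) of the tested genes of each list, 1 point per gene with the list median in red; the box for all 15956 tested genes spans the quartiles, with whiskers from the 10th to the 90th percentile. The 30 msp points lie between −7.60 and −4.59, and 11 of 12 ssp points between −5.07 and −3.34, with ssp-37 alone at 7.22.

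The 6 most abundant msp genes lay within a narrow range in L4. Per length, in the deposited FPKM (counts divided by gene length and library total), msp-31 stood at 452 ± 21.1 in L4, msp-36 at 411 ± 5.34, msp-40 at 386 ± 6.45, msp-81 at 369 ± 2.93, msp-57 at 362 ± 3.78 and msp-76 at 332 ± 7.77 (mean ± SD, n = 3). In that order, the L4 libraries of each gene lay below those of the gene before it without overlap. The first place of msp-31 rests on its length, since the deposited FPKM divides its counts by 384 bases and those of msp-36 by 454; in CPM, msp-36 was highest. At day 10 the order was less clear, with msp-57 at 9.04, 11.3 and 12.7 FPKM in the 3 libraries and msp-36 at 8.25, 8.66 and 12.6, which overlap.

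The gene msp-36 (WBGene00003432, WBcel235, chromosome IV, 10095433 to 10095816, plus strand) held 188, 188 and 186 CPM in L4 and 3.82, 3.99 and 5.45 CPM at day 10. Its log2 fold change was −5.41 ± 0.15 (SE; edgeR's adjusted p = 2.7e-09). The gene msp-40 (chromosome II, 4825414 to 4825797) held 173, 184 and 176 CPM in L4 and 3.74, 4.35 and 4.79 CPM at day 10. For these genes the L4 libraries lay within a few percent of each other, and the day 10 libraries spread more widely in proportion. In msp-31 (chromosome II, 4916179 to 4916562) the values were 180, 169 and 174 CPM in L4 and 2.78, 3.79 and 3.32 CPM at day 10, a log2 fold change of −5.72 ± 0.11. Its libraries of the 2 ages stood far apart, with no overlap. The gene msp-81 held 168, 173 and 172 CPM in L4 and 3.74, 5.20 and 4.01 CPM at day 10. In msp-57 the values were 166, 169 and 169 CPM in L4 and 4.25, 5.28 and 5.57 CPM at day 10. In msp-76 they were 145, 155 and 152 CPM in L4 and 3.66, 4.88 and 4.14 CPM at day 10, so that replicate 1 was the lowest day 10 library in all 3 genes.

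The msp gene with the smallest fall was msp-38 (WBGene00003434, chromosome IV, 10143357 to 10143740, minus strand), which held 58.4, 60.5 and 61.0 CPM in L4 and 1.59, 3.19 and 2.70 CPM at day 10. Its log2 fold change was −4.59 ± 0.25 (edgeR's adjusted p = 9.7e-08). It lies inside dhs-12, on the opposite strand and without sharing an exon; dhs-12 stood at 41.4 CPM in L4 and 50.3 CPM at day 10. The msp gene with the largest fitted fall was msp-74 (WBGene00003462, chromosome II, 5115102 to 5115335), a short member of 234 bases, with 2.89, 4.14 and 3.97 CPM in L4. It had 1 count at day 10, in replicate 1, and the ratio of pooled levels was 275 (95% exact counting interval 48.8 to 10897), with a fitted log2 fold change of −7.60, or −9.36 without day 10 replicate 1. Such intervals and bounds cover counting error only.

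Of the 31 msp genes, 28 span 384 bases in the annotation, and all 31 have a single exon. The other short member, msp-58, also of 234 bases, held 1.12, 1.11 and 0.804 CPM in L4 and 0 counts at day 10, at least 25.2-fold lower against 3 counts over the pooled day 10 libraries. The gene msp-32, of 360 bases, was not tested; it had 0 counts in L4 and 3 counts at day 10, all in replicate 3. Among the 28 genes of 384 bases the mean FPKM in L4 ranged from 14.1 to 452, and 26 of them exceeded 100 FPKM, with msp-10 at 36.6 ± 2.88 and msp-63 at 14.1 ± 1.90 below. The gene msp-63 held 5.83, 5.88 and 7.29 CPM in L4, and 0, 0.0806 and 0.164 CPM at day 10; its log2 fold change was −6.20, or −7.10 without day 10 replicate 3. Its neighbour msp-142 lies 479 bases away on the opposite strand and stood at 62.3 ± 0.868 CPM in L4 and 2.18 ± 0.665 CPM at day 10. Members this close thus differed in level at L4 while both were lower at day 10.

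**Figure D3:**
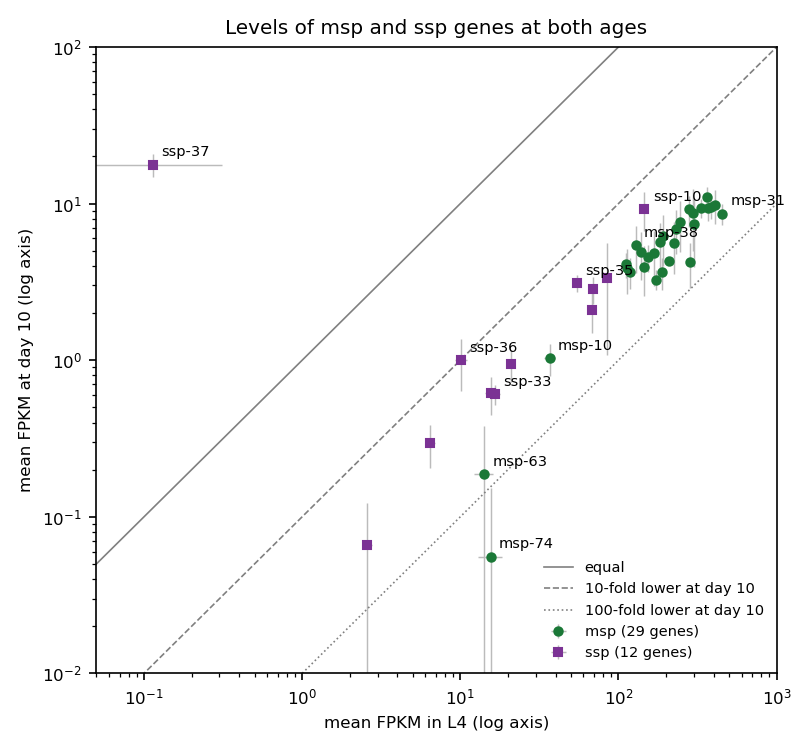
Mean FPKM at day 10 against L4 (both axes log) for 29 msp genes and 12 ssp genes, with SD bars over 3 libraries, cut off by the axis where they reach 0; msp-32 and msp-58, each at 0 in all libraries of an age, are left out. Most points lie between the lines for a 10-fold and a 100-fold lower level at day 10, msp-74 lies beyond them, and ssp-37 lies above the line of equal levels.

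Levels at the ages were ordered alike across the msp genes and across the ssp genes other than ssp-37. Spearman's rho between mean FPKM in L4 and at day 10 was 0.876 over 30 msp genes. It was 0.469 over the 12 ssp genes and 0.909 over the 11 without ssp-37, the lowest ssp gene in L4 and the highest at day 10. These values are a description over genes that share libraries, gene lengths and reads. At day 10 replicate 1 was the lowest library for 24 of the 30 msp genes with any count there, and replicate 3 was the highest for 19. The median coefficient of variation over libraries was 3.12% in L4 and 28.1% at day 10 for msp genes, and 6.03% and 30.1% for ssp genes. These counts and coefficients were not taken over all genes. Over all genes, too, the day 10 libraries lay farther from each other than those of L4. Counts per msp gene were 16 to 4414 in L4 and 0 to 136 at day 10, leaving msp-32 aside, so counting error is larger in proportion at day 10. The msp total, at 1449, 2007 and 2093 counts in the day 10 libraries, spread there too, at 57.6, 80.9 and 85.7 CPM. How much of the spread is counting error was not tested.

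The msp genes lie in clusters, with 13 genes on chromosome II between 4785898 and 5810330 and 18 on chromosome IV. On chromosome IV, 9 lie between 5055631 and 5316906 and 9 between 9689015 and 10143740. Summed levels of the chromosome II genes were 1142, 1186 and 1156 CPM in L4 and 20.2, 27.9 and 30.5 at day 10. The chromosome IV genes summed to 1629, 1693 and 1673 CPM in L4 and 37.4, 53.1 and 55.3 at day 10. The ratio of chromosome II to chromosome IV, which needs no scaling between libraries, was 0.701, 0.700 and 0.691 in the L4 libraries and 0.541, 0.525 and 0.552 at day 10. Values of the ages did not overlap, with means of 0.697 ± 0.00575 and 0.539 ± 0.0133; this comparison was chosen after the values were seen, and no test was made.

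**Figure D4:**
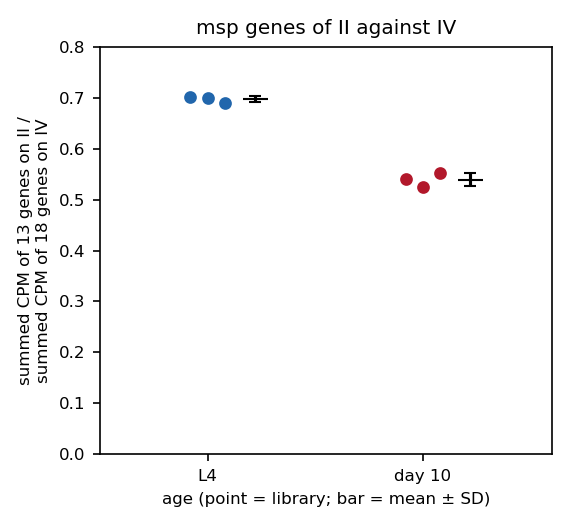
Summed CPM of the 13 msp genes on chromosome II divided by that of the 18 on chromosome IV in each library (points), with the mean and SD over 3 libraries beside them. The 3 L4 libraries sit between 0.691 and 0.701 and the 3 day 10 libraries between 0.525 and 0.552.

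With each of the 31 genes left out of this ratio in turn, the ages did not overlap in 31 of 31 cases. Mean ratios were 0.450 to 0.603 at day 10 and 0.591 to 0.786 in L4. The largest mean share of the msp total was 6.63% in L4 (msp-36) and 6.80% at day 10 (msp-57). With shares this small, leaving out 1 gene could hardly make the ages overlap, so no conclusion is drawn from it. Since copies can share reads, leaving out 1 gene need not remove all of its reads. Median log2 fold changes were −5.66 for the 12 tested genes of chromosome II, and −5.03 and −5.13 for the 9 genes of each cluster of chromosome IV. The genes of chromosome II did not all fall by more. Within it the log2 fold changes were −6.09 for msp-152, −5.74 for msp-3 and −5.72 for msp-49, against −4.83 for msp-142 and −4.95 for msp-45. Shares of the msp total showed the same: msp-152 made up 4.66% ± 0.230 of it in L4 and 2.59% ± 0.525 at day 10, and msp-45 3.82% ± 0.0355 and 4.68% ± 0.123. How reads that match several copies were divided among them was not tested.

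Genes beside the members also leaned to lower levels at day 10. Within 5000 bases of a member lay 110 other protein-coding genes, of which 91 were tested. Of these, 57 were lower, 62.6%, and 23 higher, against 45.0% lower and 40.5% higher over all genes. Other sperm genes were not taken out of this set, and their part in it was not tested. No member shares an exon with another annotated gene. Besides msp-38, the genes msp-33, msp-31 and msp-45 lie inside gst-9, aagr-2 and srb-13, and aagr-2, on the strand of msp-31, stood at 352 CPM in L4 and 82.5 CPM at day 10.

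The ssp genes are fewer, more scattered and less expressed than the msp genes. They lie on chromosome IV (6 genes), I (4) and V (2), and 9 of 12 have a single exon. Their mean FPKM in L4 ranged from 0.113 to 146, with a median of 18.8 against 189 for msp. The most abundant in L4 was ssp-10 (WBGene00006039, chromosome IV, 9850702 to 9851031), at 58.1, 56.8 and 57.4 CPM in L4 and 3.98, 4.52 and 2.38 CPM at day 10, a log2 fold change of −3.98 ± 0.24 (edgeR's adjusted p = 2e-07). The libraries of the ages stood far apart, and day 10 replicate 3 was the lowest. In ssp-16 (WBGene00006044, chromosome I, 6102067 to 6102396), the values were 35.7, 37.9 and 36.5 CPM in L4 and 0.795, 1.01 and 2.46 CPM at day 10. There replicate 3 was the highest, and the log2 fold change was −4.69, or −5.32 without it.

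The gene ssp-34 held 29.0, 34.0 and 31.6 CPM in L4 and 1.31, 1.05 and 1.47 CPM at day 10. In the annotation 2 identifiers carry the symbol ssp-9. The more abundant one, WBGene00006040 (chromosome IV, 4999485 to 4999814), is ssp-11 in RefSeq, and held 28.3, 30.4 and 27.1 CPM in L4 and 0.795, 1.17 and 0.655 CPM at day 10. The other, WBGene00006038, lies 4785 bases away and stood at 1.08 ± 0.0508 CPM in L4 with 2 counts at day 10, a ratio of 40.1 (95% exact counting interval 10.7 to 338). These neighbours of equal length differed in L4 by more than the spread of their libraries. In FPKM, ssp-34 and ssp-11 (68.9 ± 4.45 and 68.1 ± 3.24 in L4) did not differ beyond that spread.

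On chromosome V, ssp-35 (12263500 to 12263823) held 28.0, 29.8 and 29.4 CPM in L4 and 1.43, 1.81 and 1.64 CPM at day 10, and ssp-33 (14711377 to 14711700) 7.51, 7.08 and 6.63 CPM and 0.239, 0.242 and 0.287 CPM. Their log2 fold changes were −4.15 ± 0.08 and −4.76 ± 0.06. For ssp-33 the SE understates the error. This gene had 6, 6 and 7 counts at day 10, and its CPM there lay below the 0.5 added before logs were taken. The ssp genes away from chromosome IV fell as those on it did, other than ssp-37. On chromosome I, ssp-31 fell from 10.3 ± 0.589 to 0.458 ± 0.0902 CPM and ssp-19 from 6.86 ± 0.632 to 0.268 ± 0.0798 CPM.

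The smallest fall of either family was in ssp-36 (WBGene00011749, chromosome IV, 9765637 to 9766350), at 3.60, 3.75 and 4.22 CPM in L4 and 0.398, 0.242 and 0.492 CPM at day 10. Its log2 fold change was −3.34 ± 0.14 (edgeR's adjusted p = 6.5e-06). With 10, 6 and 12 counts at day 10, it passed the filter only through L4, so this p-value is no independent support. Here too the day 10 CPM lay below the 0.5 added before logs were taken, which shrinks the SE. The gene ssp-36 is 1 of 3 ssp genes with 2 exons, with ssp-32 and ssp-37. It lies 421 bases from msp-79, which fell by 4.88 on the log2 scale. The gene ssp-32, 374 bases from msp-77, fell from 2.92 ± 0.191 to 0.134 ± 0.0452 CPM, a log2 fold change of −4.38.

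The gene ssp-37 (WBGene00012211, chromosome I, 12561040 to 12561560, minus strand) went the other way. It held 0.152, 0 and 0 CPM in L4, which is 3 counts in replicate 1, and 6.56, 9.11 and 8.15 CPM at day 10. Every day 10 library stood above every L4 library, and the ratio of pooled levels was 167 (95% exact counting interval 56.8 to 811). Its fitted log2 fold change was 7.22 (edgeR's adjusted p = 2.1e-06), or 10.54 without L4 replicate 1 and 6.60 without L4 replicate 2. The gene passed the filter only through day 10, the age where it is high, so this p-value is no independent support. At day 10 ssp-37 made up 40.0%, 45.5% and 44.3% of the summed ssp CPM, and in L4 0.0720%, 0% and 0%. Per length it was the highest ssp gene at day 10, at 17.7 ± 3.01 FPKM, above ssp-10 at 9.22 ± 2.57.

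**Figure D5:**
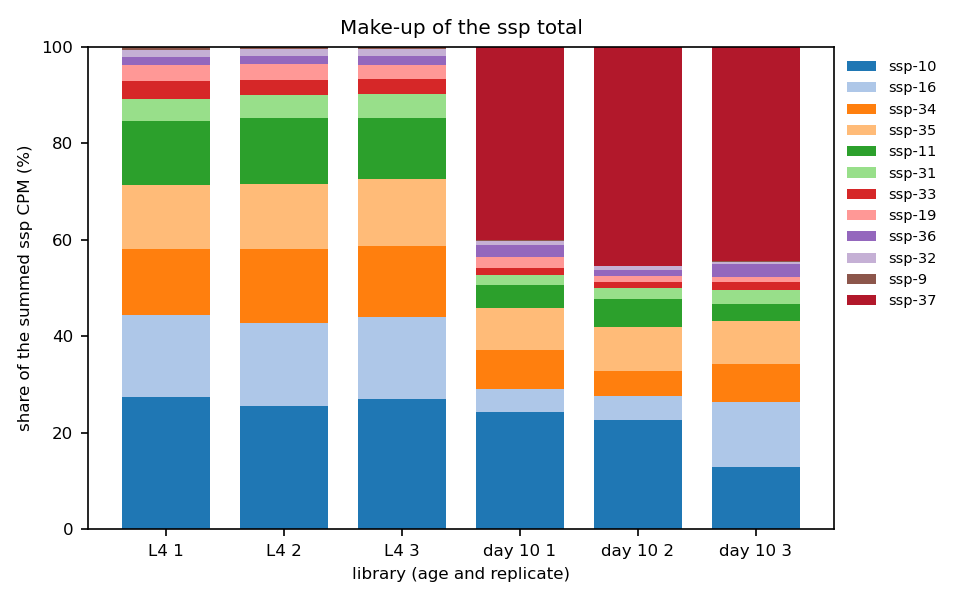
Share of the summed ssp CPM held by each of the 12 ssp genes (stacked bars, in percent) in each library. The gene ssp-37 (dark red) fills 40.0% to 45.5% of the bars of day 10 and is not visible in those of L4, where ssp-10 holds the largest share.

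The nearest genes on the strand of ssp-37 rose with it. They were chosen after their values were seen. W02D9.6 (WBGene00012212), 368 bases away, held 0.406, 0 and 0.101 CPM in L4 and 43.2, 52.0 and 70.3 CPM at day 10. W02D9.7 (WBGene00012213), 1382 bases away, held 0.710, 0.171 and 0.101 CPM in L4 and 82.9, 78.3 and 76.1 CPM at day 10. Their log2 fold changes were 8.39 ± 0.32 and 7.93 ± 0.32 (edgeR's adjusted p = 2.5e-06 and 1.4e-07). Both passed the filter through their day 10 counts alone. The SE understate the error, as the L4 CPM lay near or below the 0.5 added before logs were taken. Neither gene overlaps ssp-37, and the table gives no product for them. On the other side C49G9.2, on the opposite strand, fell by 2.54 on the log2 scale. The third gene on the strand of ssp-37 within 5000 bases, dlk-1, 4240 bases away on that side, fell from 57.4 ± 0.689 to 32.9 ± 12.9 CPM (log2 fold change −0.80 ± 0.31; edgeR's adjusted p = 0.023).

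Other sperm genes fell like most members, but a fall of this size was not particular to sperm genes. Markers of body-wall muscle and of the larval moult, given below, fell about as far. The list of other small sperm families held 26 genes: the MSP-domain msd genes, the PDZ-domain smz genes, the sperm chromatin spch genes, the ssq, sss and nspd families, and the sperm phosphatases gsp-3 and gsp-4. Of the 25 tested, 25 fell, where 45.0% of all genes did, with a median log2 fold change of −4.69. The gene nspd-8 had 0 counts in every library. Within this list ssq-2 fell from 247 ± 15.7 to 5.85 ± 1.24 CPM and ssq-4 from 247 ± 18.7 to 8.73 ± 2.68 CPM. The 6 sperm markers in the table fell too, against the same 45.0% of all genes. Their summed levels were 141 to 146 CPM in L4 and 11.7 to 18.4 CPM at day 10. Each marker had counts in all 3 day 10 libraries except spe-38, at 0 in replicate 1. Their median was −3.39. Within them spe-41, a channel of the TRP family, stood at 43.1 ± 3.52 and 6.80 ± 0.519 CPM, and spe-11, a sperm-supplied factor of the embryo, at 43.9 ± 3.49 and 2.54 ± 1.36 CPM.

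Genes that regulate msp transcription or build the fibrous bodies were split. Of the 9 in the table, 7 fell and 2 rose, where 45.0% and 40.5% of all genes did. The median log2 fold change of the 9 was −3.23. The gene spe-18, needed for the assembly of fibrous bodies, held 108, 123 and 119 CPM in L4 and 4.81, 4.96 and 6.47 CPM at day 10, a log2 fold change of −4.43 ± 0.14. The transcription factor gene spe-44, which drives spermatogenesis genes and was singled out after its values were seen, fell by much less, from 28.3 ± 1.04 to 18.5 ± 0.745 CPM (log2 fold change −0.61 ± 0.04; edgeR's adjusted p = 0.00018). The choice of scaling moved the median of all genes by up to 0.45 on the log2 scale; spe-44 fell under each of the other 3 scalings, at log2 fold changes of −1.07 to −0.45. The rises were in spe-39, a vesicle protein also used in other tissues, from 32.9 ± 0.927 to 81.1 ± 7.94 CPM, and in elt-1, a GATA factor that binds msp promoters and also specifies the epidermis, from 13.1 ± 1.46 to 30.0 ± 1.97 CPM.

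Genes that receive the MSP signal in oocytes and the gonadal sheath went both ways. Of 14, 7 rose and 7 fell, where 40.5% and 45.0% of all genes did, and the median of −0.15 was close to the −0.16 of all genes. Those that rose were vab-1, the Eph receptor to which MSP binds, the innexins inx-14 and inx-22, the adenylyl cyclase acy-4, the kinase mpk-1, and the oocyte RNA-binding genes oma-1 and oma-2. All kept their direction under the other scalings, but acy-4 did not pass the test with upper-quartile factors (log2 fold change 0.20; adjusted p = 0.39). In oma-2 the level rose from 18.3 ± 1.41 to 655 ± 148 CPM and in oma-1 from 35.7 ± 2.82 to 410 ± 41.1 CPM. The receptor vab-1, chosen like kin-1 after its values were seen, held 60.2, 62.0 and 53.9 CPM in L4 and 299, 296 and 277 CPM at day 10, a log2 fold change of 2.31 ± 0.07 (edgeR's adjusted p = 9.6e-09). Those that fell were ceh-18, a homeobox gene of the sheath, gsa-1, kin-1 and kin-2 of the Gs and protein kinase A pathway, and itr-1, lfe-2 and plc-3 of inositol trisphosphate signalling. The protein kinase A subunit kin-1 fell from 148 ± 5.21 to 32.9 ± 1.48 CPM. The gene vpr-1, whose MSP-domain protein is made outside sperm, rose from 134 ± 6.06 to 214 ± 5.14 CPM, a log2 fold change of 0.68 ± 0.04.

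Markers of other cells and stages changed between the ages as well. Over all genes tested, 45.0% were lower at day 10 and 40.5% higher. Median log2 fold changes were 4.59 for oocyte markers, −4.88 for body-wall muscle and −5.13 for larval epidermis and moult. They were −2.24 for intestine and −0.42 for neurons. The falls in muscle and moult markers were thus near the −5.16 of the msp genes. All 6 oocyte markers rose, from summed levels of 428 to 460 CPM in L4 to 8099 to 11956 CPM at day 10; cpg-2, of the eggshell, rose from 146 ± 6.15 to 3249 ± 762 CPM and cbd-1 from 95.7 ± 11.9 to 2494 ± 422 CPM. All 3 markers of body-wall muscle fell, from 8762 to 9766 CPM to 245 to 290 CPM, with the myosin heavy chain unc-54 at 6333 ± 390 and 153 ± 7.93 CPM and the paramyosin unc-15 at 2441 ± 123 and 95.0 ± 13.7 CPM. So did all 4 of the larval epidermis and moult, from 2187 to 2588 CPM to 93.1 to 135 CPM, with mlt-11 at 903 ± 131 and 35.1 ± 7.94 CPM and noah-1 at 706 ± 62.3 and 72.2 ± 13.0 CPM. The 3 intestine markers fell, from 3031 to 3215 CPM to 464 to 774 CPM, with asp-1 at 3026 ± 99.2 and 639 ± 163 CPM and ges-1 at 64.8 ± 0.503 and 10.8 ± 6.13 CPM. Of 3 neuronal markers 2 fell and 1 rose, at summed levels of 197 to 205 CPM and 287 to 316 CPM; snb-1 rose from 157 ± 3.34 to 269 ± 11.2 CPM and unc-64 fell from 37.1 ± 1.72 to 27.8 ± 4.03 CPM. The gene try-5, which marks the seminal fluid of males, rose from 0.668 ± 0.132 to 1.75 ± 0.582 CPM. No listed marker of these cells was at 0 counts at day 10, and their part in the levels of the msp and ssp genes was not tested.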

How the data were processed

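RNA of whole worms was sequenced by the authors in 3 libraries per age from Illumina TruSeq kits, per the labels. The deposited table holds raw read counts per gene; the submitters' processing notes name CASAVA 1.8, HISAT2 and HTSeq, and the build, annotation and treatment of reads with several matches are not given in the sources used here. The authors also deposited FPKM, which divide counts by 1 length per gene and the library total. The p-values and adjusted p-values deposited by the authors compare the ages by a test that is not given. The mean signal per age beside them is, from the values the authors deposited, a mean of counts divided by a size factor.

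Symbols and coordinates are those of Ensembl release 115 for WBcel235, matched by gene identifier. Counts were tested with edgeR 4.0.16 in R 4.3.3 (TMM scaling, default filter, robust quasi-likelihood, Benjamini-Hochberg adjustment over all genes), after a check on simulated counts. In the simulation few genes changed, as many up as down, unlike the data, so the check does not bear on the scaling. CPM use the TMM-scaled total, SE come from log2(CPM + 0.5), and folds against 0 counts use a floor of 3 counts. The log2 fold changes are edgeR's. Where CPM lie near or below 0.5, the added 0.5 shrinks the SE, which then understates the error. Alternatives used DESeq2 1.42.0 and limma 3.58.1. Members and lists were chosen with earlier results of these data known. Values in each library are given for the 6 msp and 4 ssp genes highest in FPKM, the largest and smallest fold change per family, any member that rose, members away from their family's main chromosomes (ssp-33 and ssp-35), and, for each other list, levels (in part as mean ± SD only) for the 2 genes highest in CPM. Whether replicate numbers pair the samples is not known, and the main fit did not pair them. Sequences were not used here, so copies could not be grouped by identity.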

Additional observations from a re-analysis of the deposited data

How the results depend on the processing

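Over 15 alternative fits, the 42 tested members kept their direction and stayed under an adjusted p of 0.05 in all 629 values obtained, the highest adjusted p being 0.0030. The number of msp genes that fell was 30 in each fit except with at least 1 CPM in 3 libraries, where 29 were tested and 29 fell; 11 ssp genes fell and 1 rose in each. Upper-quartile factors moved the median log2 fold change to −5.61 for msp, −4.998 for ssp and −0.62 for all genes, and the log2 ratio of summed levels from −5.24 to −5.69 for msp and from −3.56 to −4.01 for ssp. With DESeq2's size factors the ssp median was −4.39, the ssp sum −3.40 and the median of all genes 0.00026. The median of all genes was 0.14 without a filter, and with DESeq2's Wald test it was 0.34 and the ssp median −4.40; these fits hold 24922 genes.

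Estimates for 5 members moved by over 1.5 times. Besides the values without a library given for msp-74, msp-63, ssp-16 and ssp-37, limma-voom gave −6.98 for msp-74 and −5.67 for msp-58, and DESeq2's test −6.92 for msp-58, whose main estimate was −7.54; the cause was not tested. Same-numbered samples of the ages were barely correlated (0.0190 to 0.0204), and samples of unlike number had correlations of −0.0156 to −0.00505. Values this small cannot tell whether the numbers pair the samples. With the replicate number as a block 30 msp genes and 11 ssp genes fell and 1 ssp gene rose, and 7043 genes were lower and 6354 higher, against 7175 and 6460; each sample correlated best with its own number. The planned sum of copies at least 98% identical was not run, as no sequence was used. Day 10 counts of 0 to 136 per msp gene limit the precision of single copies.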
